A study of Mus musculus with 3 samples.

Results

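The WNT pathway genes described here are 42 mouse genes chosen by name, all of which were found among 21887 protein-coding genes of the RefSeq table. They are the 19 WNT ligand genes, 12 receptor genes (the 10 Frizzled genes with the coreceptor genes Lrp5 and Lrp6), and 11 genes of nuclear factors, the destruction complex and feedback antagonists. CUT&Tag, which maps where an antibody directs the Tn5 transposase to chromatin, was applied to wild-type mouse otocysts, the epithelial vesicles of the future inner ear, microdissected at E10.5. Cells of 34 pooled otocysts were dissociated with Accutase and split 3 ways. One share received antibody to CHD7 (a chromatin remodeler that uses ATP, whose loss of function causes CHARGE syndrome), another antibody to SOX2 (a transcription factor with an HMG box, needed for the sensory patches of the ear), and the last no primary antibody. That last sample is not analysed here, so no background level stands beside the values. All 3 samples come from 1 pool, so the lists rest on 1 library per antibody and no value has a replicate check.

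WNT proteins are secreted lipid-modified ligands that bind Frizzled receptors. With LRP5 or LRP6 as coreceptor this stops the destruction complex, which holds Axin and APC, from removing β-catenin, and β-catenin then acts with the DNA-binding proteins TCF and LEF. Other WNT signals act through Frizzled receptors on planar cell polarity, the shared orientation of cells in a sheet. In the mouse, WNT1 and WNT3A from the dorsal hindbrain are known to pattern the dorsal, vestibular side of the otocyst, and Frizzled proteins orient the hair cells of the cochlea.

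The CHD7 list held 33035 peaks and the SOX2 list 155548. Each peak carries the authors' total coverage signal, which has no stated scale and ranks peaks only within its own list. The lowest total signal was 433 in the CHD7 list and 733 in the SOX2 list. Read depth is unknown. A peak marks a place where a library's coverage was called enriched, which does not by itself show binding. A gene end is either outer border of a gene with 1 kb on each side, and a locus is the gene with 50 kb on each side. Peaks are called shared when a CHD7 and a SOX2 peak have at least 1 base in common. As a check of the labelled tissue, CHD7 peaks lay at an end of 7 of 12 otic marker genes and SOX2 peaks at an end of 9 of 12, against 30.8% and 59.7% of all protein-coding genes. Pax2 and Pax8 had neither. A CHD7 and a SOX2 peak were each at an end of 6 of 7 mesenchyme genes, against 3 and 5 of 7 hindbrain genes and 1 and 3 of 7 blood and endothelial genes. No expression was measured, and the part of such other cells in the WNT values was not tested.

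Start windows of 7 member genes are printed here because a CHD7 peak covers or touches each of them; 6 of them also have a SOX2 peak. Each runs from 250 bases before to 50 bases after a RefSeq transcription start, 5′ to 3′ in the direction of transcription (RefSeq, build GRCm38.p6, also called mm10). Capitals mark CpG dinucleotides, which are dense at many vertebrate promoters. The Frizzled receptor windows come first.
Fzd4, chr7:89404116-89404415, strand plus: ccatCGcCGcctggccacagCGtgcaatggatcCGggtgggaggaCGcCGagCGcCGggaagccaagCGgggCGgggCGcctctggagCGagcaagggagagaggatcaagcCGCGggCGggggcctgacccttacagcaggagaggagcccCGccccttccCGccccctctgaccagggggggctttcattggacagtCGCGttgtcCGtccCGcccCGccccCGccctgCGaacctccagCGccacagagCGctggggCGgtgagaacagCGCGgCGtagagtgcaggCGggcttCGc
Fzd7, chr1:59481897-59482196, strand plus: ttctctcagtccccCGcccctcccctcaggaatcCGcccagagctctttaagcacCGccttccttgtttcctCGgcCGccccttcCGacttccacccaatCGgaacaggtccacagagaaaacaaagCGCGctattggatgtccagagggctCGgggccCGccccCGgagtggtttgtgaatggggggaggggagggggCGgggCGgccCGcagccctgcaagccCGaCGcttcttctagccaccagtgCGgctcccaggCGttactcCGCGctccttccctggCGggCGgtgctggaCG
Fzd5, chr1:64737701-64738000, strand minus: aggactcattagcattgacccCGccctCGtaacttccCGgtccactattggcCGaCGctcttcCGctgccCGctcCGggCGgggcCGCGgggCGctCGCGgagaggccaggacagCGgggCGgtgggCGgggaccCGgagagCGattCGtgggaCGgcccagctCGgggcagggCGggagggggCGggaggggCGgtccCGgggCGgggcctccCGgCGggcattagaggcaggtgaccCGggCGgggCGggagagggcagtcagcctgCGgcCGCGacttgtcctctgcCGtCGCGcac

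The next windows belong to Sfrp2, which encodes a secreted antagonist that binds WNT proteins, to the TCF gene Tcf7l1, and to Dkk1, whose product blocks the LRP coreceptors.
Sfrp2, chr3:83766071-83766370, strand plus: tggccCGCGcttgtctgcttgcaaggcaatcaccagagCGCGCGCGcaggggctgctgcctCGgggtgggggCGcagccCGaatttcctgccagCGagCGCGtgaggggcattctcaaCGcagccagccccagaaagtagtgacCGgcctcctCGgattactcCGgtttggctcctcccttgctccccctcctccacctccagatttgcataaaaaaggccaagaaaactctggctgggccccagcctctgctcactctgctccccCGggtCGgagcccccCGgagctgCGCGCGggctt
Tcf7l1, chr6:72788996-72789295, strand minus: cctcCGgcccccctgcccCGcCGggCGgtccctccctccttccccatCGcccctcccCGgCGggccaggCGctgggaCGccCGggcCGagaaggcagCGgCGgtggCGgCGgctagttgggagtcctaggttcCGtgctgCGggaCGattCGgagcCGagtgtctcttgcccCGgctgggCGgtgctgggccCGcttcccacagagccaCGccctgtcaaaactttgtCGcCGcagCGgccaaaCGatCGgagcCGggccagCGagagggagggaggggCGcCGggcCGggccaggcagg
Dkk1, chr19:30549447-30549746, strand minus: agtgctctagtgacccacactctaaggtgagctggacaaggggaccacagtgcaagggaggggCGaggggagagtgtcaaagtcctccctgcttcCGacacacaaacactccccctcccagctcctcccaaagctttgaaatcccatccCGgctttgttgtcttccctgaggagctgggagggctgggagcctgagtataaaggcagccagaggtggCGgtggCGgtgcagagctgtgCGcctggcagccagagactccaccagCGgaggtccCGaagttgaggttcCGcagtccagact

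The last window is that of Axin2, a feedback inhibitor and a widely used reporter gene of β-catenin signalling. It was added after its values were seen, as a window with a CHD7 peak and no SOX2 peak. A SOX2 peak at chr11:108921351-108921950 lay past the window, inside the gene.
Axin2, chr11:108920099-108920398, strand plus: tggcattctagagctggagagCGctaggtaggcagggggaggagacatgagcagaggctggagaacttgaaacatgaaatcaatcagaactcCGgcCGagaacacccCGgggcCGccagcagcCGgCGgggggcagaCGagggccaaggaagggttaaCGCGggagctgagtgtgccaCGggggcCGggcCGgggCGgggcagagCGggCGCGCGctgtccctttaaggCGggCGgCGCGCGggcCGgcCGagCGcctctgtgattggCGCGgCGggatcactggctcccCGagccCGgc

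These windows differ widely in CpG content. Fzd5 has 38 CpG dinucleotides in 300 bases, Tcf7l1 34, Fzd4 32, Axin2 31, Fzd7 24, Sfrp2 22 and Dkk1 9. The median of all 21263 windows of protein-coding genes is 13.

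The 3 role groups differed in how often a CHD7 peak lay at a gene end. Among the ligand genes 2 of 19 had one, among the receptor genes 7 of 12, and among the nuclear and feedback genes 7 of 11. The receptor share was 58.3%, the nuclear and feedback share 63.6%, and the background over all protein-coding genes 30.8%. Over all members it was 16 of 42, or 38.1%, so the groups lay on both sides of the background. With 1 library the difference between groups was not tested. Median gene length was 22906 bases for the ligand genes, 5277 for the receptor genes, 38250 for the nuclear and feedback genes and 17169 for all genes, and its part in these counts was not tested.

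SOX2 end peaks were spread differently. They were found at 12 of 19 ligand genes (63.2%), 11 of 12 receptor genes (91.7%) and 6 of 11 nuclear and feedback genes (54.5%). Of all protein-coding genes 59.7% had one. With these ends of 1 kb the receptor share was above that background and the other shares were near it. Over all members SOX2 was at 29 of 42 (69.0%).

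Peaks of both lists that shared a base at a gene end marked 7 receptor genes, 4 nuclear or feedback genes and 1 ligand gene. That is 12 of 42 members, or 28.6%, near the 26.5% of all genes. Each of the 9 CHD7 peaks at receptor gene ends was shared (exact 95% binomial interval 66.4% to 100%), against 4 of 8 at nuclear and feedback genes (15.7% to 84.3%). Across all genes 85.7% of CHD7 end peaks were shared. A SOX2 end peak without CHD7 was found at 10 ligand genes, 4 receptor genes and 1 antagonist gene, together 15 of 42, and at 31.4% of all genes.

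**Figure D1:**
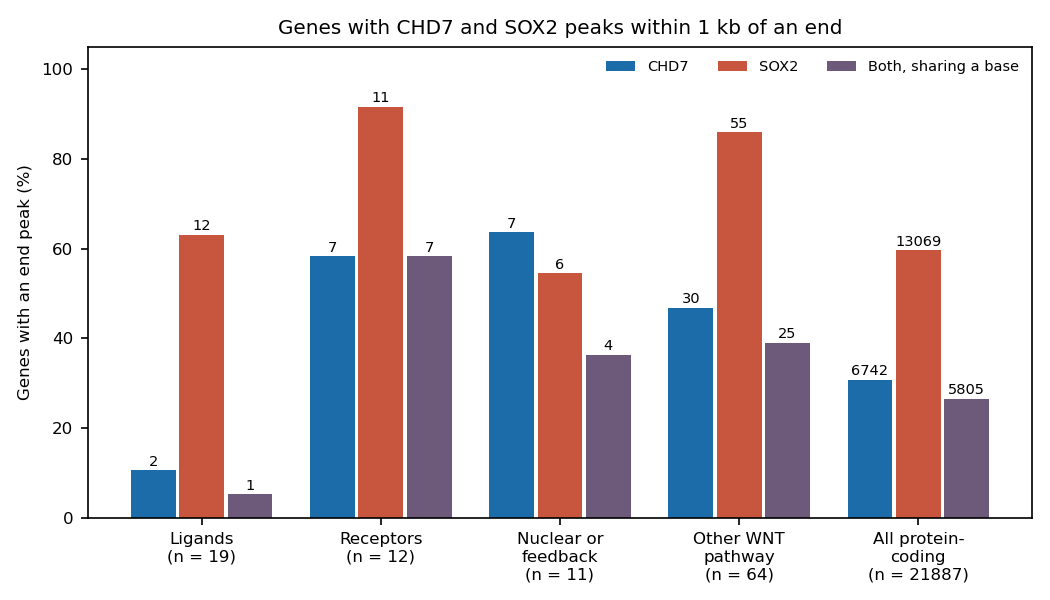
Percent of genes with a CHD7 peak, a SOX2 peak, or peaks of both lists sharing a base within 1 kb of a gene end, for the role groups, 64 other WNT pathway genes and all 21887 protein-coding genes, with the number of genes above each bar. The ligand bar for CHD7 (2 of 19) is the lowest CHD7 bar, and the receptor bars stand above those of all genes in each measure.

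The ligand genes had SOX2 end peaks of low to middle rank and CHD7 at the ends of Wnt10a and Wnt16. The strongest SOX2 peak at a ligand gene end, at Wnt4, exceeded 76.0% of the SOX2 list. Wnt16, which encodes a ligand known for its role in bone, was the single ligand gene with a shared pair. Its CHD7 peak at chr6:22288051-22289300 covered the start and had a total signal of 601. SOX2 peaks at chr6:22288351-22288800 (total signal 762) and chr6:22289101-22289750 (total signal 1261) overlapped it. The first of these was stronger than 1.93% of the SOX2 list. Wnt10a, a ligand of teeth and hair, had a CHD7 peak of signal 510.1 at chr1:74803001-74804150 and a SOX2 peak of signal 1144 at chr1:74804851-74805450, which did not meet.

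The other SOX2-marked ligand genes were Wnt2, Wnt2b, Wnt3, Wnt3a, Wnt4, Wnt5a, Wnt8a, Wnt8b, Wnt9b and Wnt10b. Their summed end signals ran from 821 to 2346. Wnt8b was highest with 2346 and Wnt4, known for its role in the kidney, followed with 2258. Wnt2b, Wnt3 and Wnt9b each had a single peak of 821, which was stronger than 11.8% of the SOX2 list. For Wnt3 and Wnt9b this was the same peak, since the 2 genes overlap. Wnt3a had 968 and Wnt5a, the ligand of planar polarity in the cochlea, had 997. None of the 12 SOX2-marked ligand genes, Wnt10a and Wnt16 included, was still marked when the SOX2 list was limited to its 10000 strongest peaks, a setting under which 16.9% of all genes were.

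Neither list was at an end of 37.8% of all genes and of 7 of 19 ligand genes, namely Wnt1, Wnt5b, Wnt6, Wnt7a, Wnt7b, Wnt9a and Wnt11. For most of them the nearest SOX2 peak was just outside the window. Its distance from the nearer border was 1202 bases for Wnt9a, 1234 for Wnt11, 1353 for Wnt7a, 1630 for Wnt1 and 1721 for Wnt7b. On the marked side, the SOX2 peak of Wnt5a lay 993 bases from the border. Ends of 2 kb raised the SOX2 count of the ligand genes to 17 of 19, against 68.6% of all genes. The CHD7 count stayed at the same 2 genes, against 34.1% of all genes. Starts listed inside a gene fall outside the gene-end rule. At such starts Wnt6 had a CHD7 peak within 1 kb and Wnt5b a SOX2 peak in its window. Wnt11 had peaks of both lists within 1 kb of such a start.

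The receptor genes held the strongest CHD7 end signals among the members. Fzd7 had a summed CHD7 end signal of 3420.3 from 2 peaks, a level reached by 0.685% of all genes, and 4779.6 in the SOX2 list. The larger CHD7 peak, at chr1:59481401-59484700 (total signal 2988), covered the whole printed start window of Fzd7 and ran on into the gene. Fzd4, also the receptor of the retinal vessel factor norrin, had 2437 for CHD7 and 7477 for SOX2, levels reached by 1.57% and 2.35% of all genes. Its CHD7 peak at chr7:89401851-89405000 also lay at an end of the neighbouring gene Tmem135. Fzd2 had 2423 and 4779.6.

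The other receptor genes with shared end peaks had lower CHD7 end signals. Fzd8 had 1435 in the CHD7 list and 4281 in the SOX2 list. Fzd5, which acts in eye development, had 902 and 4692, and Fzd1 had 802 and 5629.9. Fzd3, which with Fzd6 orients hair bundles in the mouse cochlea, had 874 and 2111. With the CHD7 list limited to its stronger 50%, the same 7 receptor genes kept an end peak, against 5 of the 7 nuclear and feedback genes and neither ligand gene; 19.2% of all genes had one. With the 10000 strongest peaks 6 receptor genes and 2 nuclear or feedback genes remained, and 13.3% of all genes.

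SOX2 without CHD7 marked Fzd9, Fzd10, Lrp5 and Lrp6. Fzd10 had a SOX2 end signal of 6392, the second highest of the 12 receptor genes after Fzd4. A CHD7 peak of signal 465 lay 1156 bases from its border, just outside the window. Fzd9 had a SOX2 end signal of 3577 and the nearest CHD7 peak was 60988 bases away. Lrp5 and Lrp6 had SOX2 signals of 2580.4 and 1701, made of peaks of at most 938, under the list median of 997.

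Fzd6 had no peak of either list at an end and no CHD7 peak inside the gene. The strongest peak of each list in any member locus lay in its surroundings, 30699 bases below the gene. The CHD7 peak at chr15:38974151-38975450 had a total signal of 11855, above 99.8% of the CHD7 list. The SOX2 peak at chr15:38974451-38975550 had 22256, above 99.9% of the SOX2 list. Neither is at an end of, or inside, a protein-coding gene, and the data tie it to no gene.

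**Figure D2:**
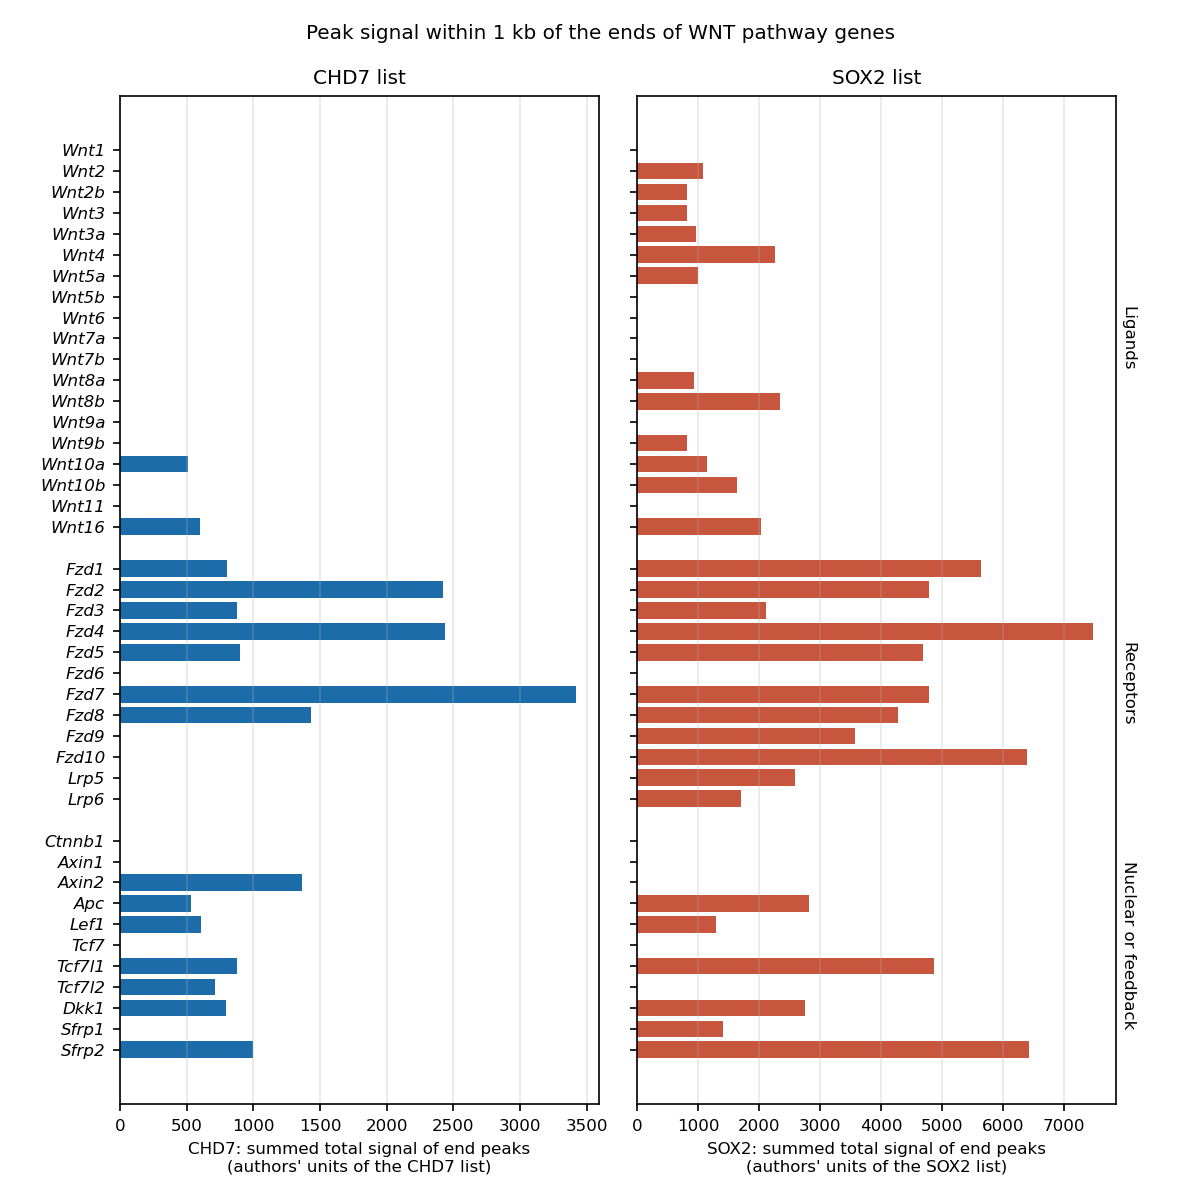
Summed total signal of CHD7 peaks (left) and SOX2 peaks (right) within 1 kb of either end of each of the 42 member genes, in the authors' units of each list, which cannot be compared between panels. Frizzled genes hold the 3 longest CHD7 bars (Fzd7, Fzd4 and Fzd2), and ligand genes have short or no bars.

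The genes of nuclear factors, the destruction complex and feedback antagonists differed in their end peaks. Shared end peaks were found at Sfrp2, Tcf7l1, Dkk1 and Apc. Sfrp2 had a CHD7 end signal of 997 and a SOX2 end signal of 6422. Most of the SOX2 signal came from a peak at chr3:83763251-83764850 (total signal 5073), 900 bases below the gene and not shared with CHD7. Tcf7l1, which encodes a TCF that acts mainly as a repressor, had 874 for CHD7 and 4868 for SOX2, with SOX2 peaks at both ends of the gene. Dkk1 had 797 and 2756, and its CHD7 and SOX2 peaks began at the same base, chr19:30548251. Apc, a scaffold of the destruction complex, had 533 and 2815.

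Axin2 and Tcf7l2 had CHD7 without SOX2 at an end, a pattern found at 2.51% of all genes. Axin2 had a summed CHD7 end signal of 1366, the fifth highest of the 42 members. The CHD7 peaks formed a group over its start: chr11:108917351-108918050, chr11:108918401-108918550, chr11:108919901-108920850, which covers the printed start window, and chr11:108921251-108922400. Their total signals were 742, 624, 487 and 819.8. Only the last shared bases with SOX2, with 2 peaks of 938 each. The SOX2 peak nearest to a border of Axin2 was 2018 bases away, and an unshared SOX2 peak of 2141 lay before the gene at chr11:108915351-108915750. The first border of Axin2 is chr11:108917828, before its listed start at chr11:108920349. A shared SOX2 peak began just past 1 kb from that start. Tcf7l2, a TCF partner of β-catenin, had a CHD7 peak of 710.5 over its first start. A SOX2 peak lay within 1 kb of its second listed start, inside the gene. Lef1 had peaks of both lists at its first end, CHD7 with 606 and SOX2 with 1290.2, that did not meet.

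Ctnnb1, which encodes β-catenin, Axin1 and Tcf7 had neither list at an end, as did 37.8% of all genes. Sfrp1 had SOX2 alone, with 1407. The start windows of Ctnnb1 hold 46 and 51 CpG dinucleotides, more than any printed window. The nearest CHD7 peak to Ctnnb1 was 41694 bases from the gene. Its locus held a SOX2 peak of 13342, the second strongest SOX2 peak of the member loci, at chr9:120885101-120889100, and no CHD7 peak met it.

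Where RefSeq starts are listed, the role groups kept for CHD7 the order they had at gene ends. Start windows were available for 29 members and 17492 protein-coding genes. A CHD7 peak touched a window of 2 of 15 ligand genes, 4 of 6 receptor genes and 6 of 8 nuclear and feedback genes, against 28.7% of all genes with a window. A SOX2 peak touched a window of 5 of the ligand genes, 6 of the receptor genes and 3 of the nuclear and feedback genes, against 45.6%. No ligand window held peaks of both lists. For Wnt11 the marked window was that of a start inside the gene, which the gene-end rule does not see. Within 1 kb of a listed start, CHD7 was at 3 of 15 ligand, 4 of 6 receptor and 6 of 8 nuclear and feedback genes. Of all genes with a listed start 31.0% had CHD7 there. SOX2 was within 1 kb of a start at 10 of 15, 6 of 6 and 6 of 8, against 54.9%.

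In all 3 role groups the median CpG count was above that of all windows. The 18 ligand windows had a median of 28 CpG dinucleotides, the 6 receptor windows 35, and the 14 nuclear and feedback windows 21.5. Across all genes, windows with a CHD7 peak had a median of 23 and windows without one 7. Among windows with at least 20 CpG dinucleotides, CHD7 peaks touched 1 of 13 at ligand genes, 3 of 5 at receptor genes and 5 of 8 at nuclear and feedback genes, against 50.3% of all such windows. SOX2 peaks touched 4 of 13, 5 of 5 and 2 of 8, against 68.7%. Windows of the same gene overlap in part, so they are not independent. The part of CpG content in the differences between role groups was not tested. Wnt9a had the highest CpG count of the members, 58, and neither peak.

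**Figure D3:**
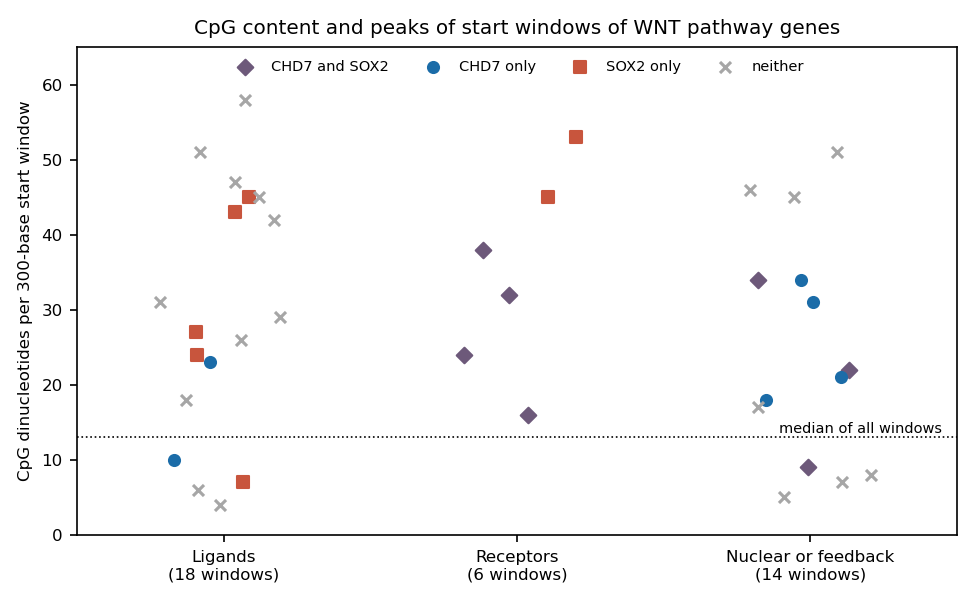
Number of CpG dinucleotides in each start window of 300 bases of member genes, by role group; markers show which lists have a peak in the window, and horizontal position within a group is random. Ligand windows reach 58 CpG dinucleotides. A CHD7 peak is in 2 of 18 ligand windows and 4 of 6 receptor windows.

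The 3 short letter motifs searched in the start windows were each in a minority of them. The TCF and LEF motif ATCAAAG, read on both strands, was in 2 member windows, at Wnt11 and Wnt5b, and in 3.22% of all windows. The SOX motif ACAATG was in 4 of 38 member windows and 11.0% of all windows. ACAAAG, which is found in sites of both protein families, was in 8 of 38 member windows and 16.8% of all windows. Among the printed windows it occurs at Fzd7, beginning at position 122 of the window, and as CTTTGT at Tcf7l1 (position 223) and Dkk1 (position 153). These are matches of letters in 300 bases and do not show sites.

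Within 50 kb, the members held 110 distinct CHD7 peaks and 564 distinct SOX2 peaks. A CHD7 peak was present in 40 of 42 loci and a SOX2 peak in all 42, against 82.9% and 98.7% of all protein-coding loci. The median member locus held 1.52 CHD7 peaks per 100 kb, against 1.54 over all genes, and 10.3 SOX2 peaks per 100 kb, against 7.41. The CHD7 medians were 1.37 for ligand loci, 2.09 for receptor loci and 1.84 for nuclear and feedback loci. Those of SOX2 were 10.7, 9.87 and 10.1. Wnt8a and Fzd9 were the loci without CHD7. A shared CHD7 peak was present in 36 of 42 loci, against 74.6% of all protein-coding loci.

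Of the 110 CHD7 peaks 71, or 64.5%, were shared with SOX2 (exact 95% binomial interval 54.9% to 73.4%), against 67.9% in the loci of all protein-coding genes. By group the share was 63.6% of 33 peaks at ligand loci, 72.7% of 33 at receptor loci and 59.1% of 44 at nuclear and feedback loci, with intervals that overlap widely. CHD7 peaks at ligand loci were weak: the median one was stronger than 22.7% of the CHD7 list. That value was 47.5% at receptor loci, 54.8% at nuclear and feedback loci and 50.1% in the loci of all protein-coding genes. Of the 33 ligand peaks, 6 came from the neighbouring Wnt6 and Wnt10a loci, which both hold them. SOX2 peaks were not weaker at ligand loci. Their medians were 51.5% at ligand loci, 51.5% at receptor loci, 47.6% at nuclear and feedback loci and 51.5% in the loci of all genes. The intervals treat the peaks of 1 library as independent of each other, so they cover counting error only and not the spread between libraries.

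**Figure D4:**
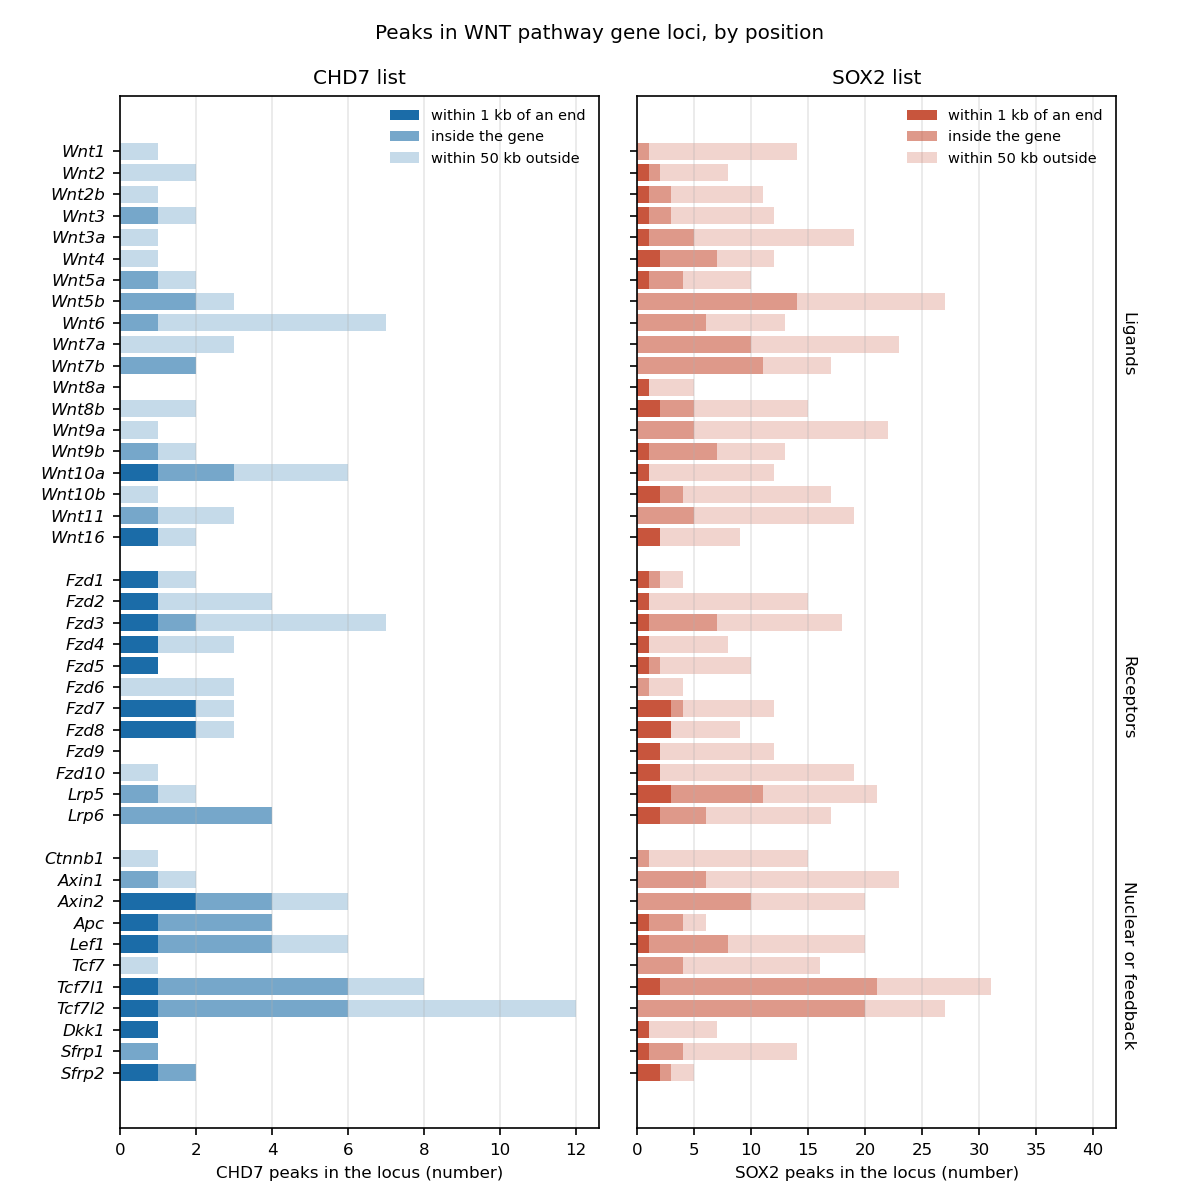
Number of CHD7 peaks (left) and SOX2 peaks (right) in the locus of each member gene, divided into peaks within 1 kb of an end, inside the gene and within 50 kb outside it. Tcf7l2 has the longest CHD7 bar with 12 peaks and Tcf7l1 the longest SOX2 bar with 31.

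Tcf7l2 and Tcf7l1 had the most CHD7 peaks per locus as raw counts and also the longest loci. Per 100 kb, Tcf7l2 had 4.11 CHD7 peaks and Tcf7l1 3.05, against 5.35 at Wnt10a, 5.34 at Wnt6, 4.51 at Axin2 and 4.12 at Fzd3. Tcf7l2 held 12 CHD7 peaks in a locus of 292 kb, a number reached by 0.685% of all genes, and 27 SOX2 peaks. The strongest CHD7 peak inside the gene, at chr19:55770451-55771300 (total signal 1316), overlapped a SOX2 peak of 1818. At the far side 4 CHD7 peaks crowded between chr19:55977601 and 55983750, the first 43942 bases past the gene, and that one (total signal 1558) was the strongest of the locus. Of these 4 peaks only the last met a SOX2 peak. Tcf7l1 held 8 CHD7 and 31 SOX2 peaks in 263 kb, and 7 of its 8 CHD7 peaks were shared, against 5 of 12 at Tcf7l2. At Lef1 2 of 6 CHD7 peaks were shared and at Axin2 1 of 6. Tcf7, the fourth TCF or LEF gene, had a single CHD7 peak and 16 SOX2 peaks. The CHD7 peak lay at an end of Skp1.

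Among the ligand loci, Wnt6 and Wnt10a had the most CHD7 peaks with 7 and 6. They are neighbours 6696 bases apart, and 6 of these peaks lie in both loci. The strongest of these 6 had a signal of 524, and another CHD7 peak of the Wnt6 locus had 560. The strongest shared pair of the ligand loci was at Wnt11, a ligand of cell movements at gastrulation in fish and frog embryos. There a CHD7 peak at chr7:98814801-98816650 (total signal 3215, above 97.8% of the list) and a SOX2 peak at chr7:98814801-98817550 (total signal 8679, above 99.5%) began at the same base, 18434 bases below the gene and between genes. Wnt9a followed, with a CHD7 peak of 2459 at chr11:59363101-59363800 and a SOX2 peak of 5659, 29549 bases from the gene. The pair of Wnt5b (CHD7 1098, SOX2 2580.4) lay at an end of Fbxl14, a gene inside the Wnt5b interval.

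Wnt5a had no CHD7 at an end, a shared pair 7693 bases before the gene (CHD7 888, SOX2 821) and another inside it, at chr14:28509601-28510600 (CHD7 674) and chr14:28509101-28510750 (SOX2 2082). Wnt1 and Wnt10b, also neighbours, shared their single CHD7 peak, which lay at an end of Arf3. Wnt3a had a single CHD7 peak, of 478, in its locus, 8386 bases from the gene. Wnt4 had a single one of 506, not shared.

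Among the receptor loci Fzd3 held the most CHD7 peaks, 7, of which 5 were shared. The strongest, at chr14:65281051-65284550 (total signal 2314), was inside the neighbouring gene Fbxo16. Lrp6 had 4 CHD7 peaks, all inside the gene, and 1 was shared. The strongest CHD7 peak of the Lrp5 locus (2405) lay at an end of Ppp6r3, and that of Axin1 (1781) at an end of Fam234a. Of the 53 distinct CHD7 peaks in member loci that lay outside every member gene and its ends, 13 lay at an end of another protein-coding gene, so a locus count is not a count of peaks acting on the member.

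**Figure D5:**
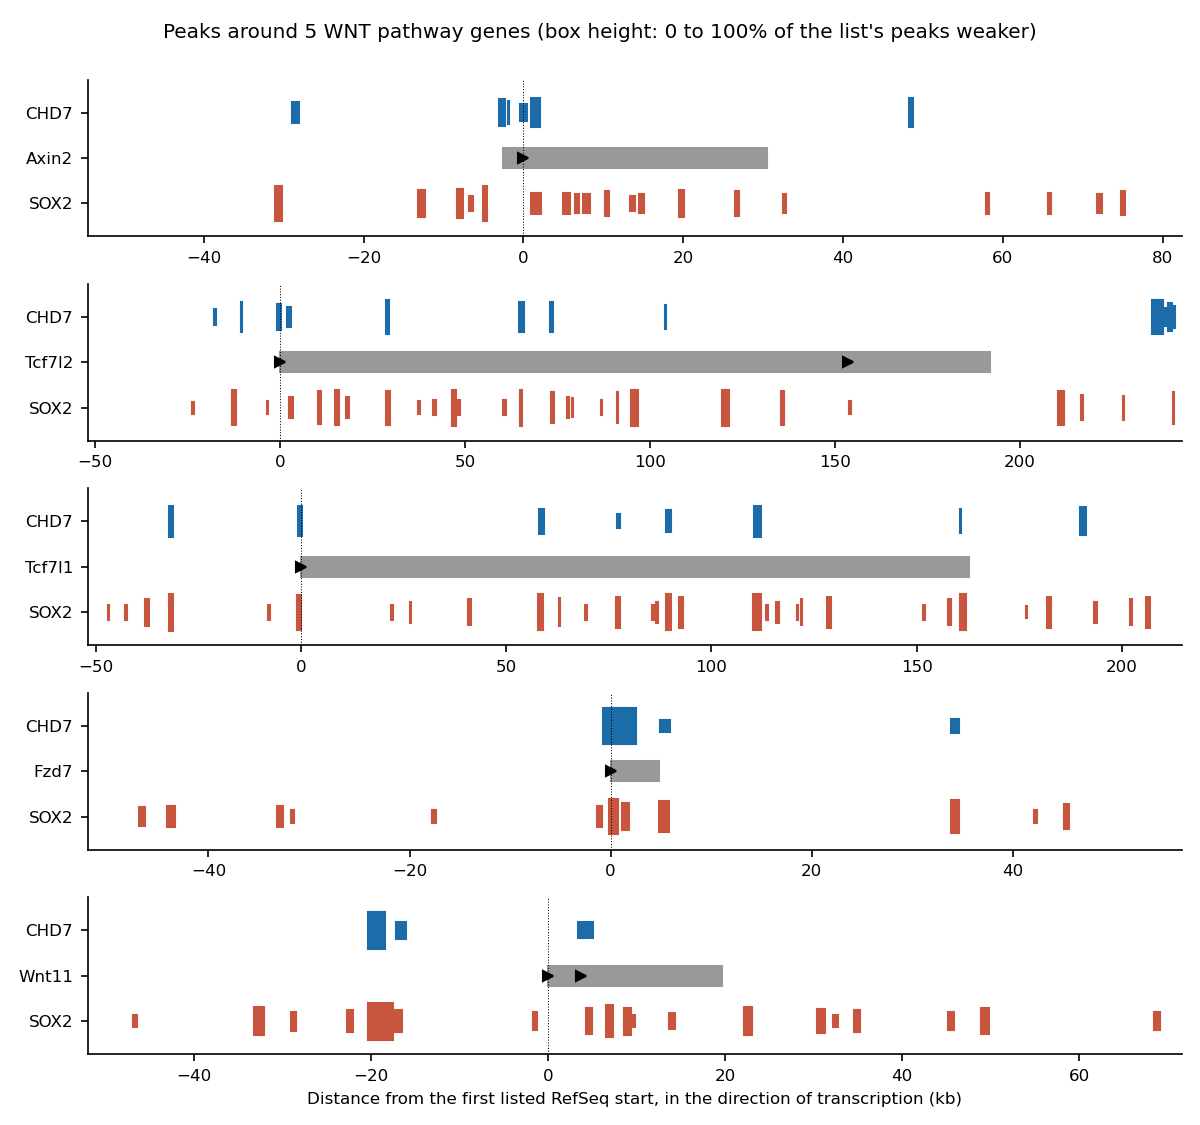
CHD7 peaks (upper row) and SOX2 peaks (lower row) around Axin2, Tcf7l2, Tcf7l1, Fzd7 and Wnt11, in kb from the first listed RefSeq start in the direction of transcription; grey bars are genes, triangles listed starts, and taller boxes are peaks stronger than more of their list. At Axin2 4 CHD7 peaks surround the start, of which 1 meets SOX2 peaks, and at Wnt11 the tallest boxes of both lists lie together before the gene.

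Other genes of the pathway, 64 in 5 lists, also differed in how often CHD7 lay at an end. Secreted and secretion genes had CHD7 at an end in 2 of 18 and SOX2 in 12. The pair with CHD7 was Frzb, a secreted WNT-binding antagonist (1075 for CHD7 and 5747 for SOX2), and Wif1, another WNT-binding inhibitor (547 and 1056). Coreceptors and receptor turnover genes had CHD7 in 7 of 11 and SOX2 in all 11. Among those with shared end peaks were the R-spondin receptor genes Lgr5 (1125 and 4105) and Lgr4 (993 and 4809). Lgr6, of the same family, had no CHD7 end peak and 821 for SOX2. Planar cell polarity genes had CHD7 in 3 of 8 and SOX2 in 6, with shared peaks at Prickle1 and Vangl2.

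Cytoplasmic transducers had CHD7 in 8 of 14 and SOX2 in 13. Gsk3b, the kinase that marks β-catenin for removal, had 3566 for CHD7 and 11758 for SOX2, and its paralogue Gsk3a 2273 and 6363. Nuclear partners and targets had CHD7 in 10 of 13 and SOX2 in all 13. Among those with shared end peaks were the Groucho corepressor genes Tle3 (4850.4 and 9178), Tle1 (2569 and 9149) and Tle4 (3629.8 and 6392). Tle2, of the same family, had no CHD7 end peak and 821 for SOX2. Together 30 of the 64 had CHD7 (46.9%) and 55 SOX2 (85.9%), against 30.8% and 59.7% of all genes. The lists were not chosen blind to these data and were not tested.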

How the data were processed

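Per the submitters' processing notes, Bowtie2, deepTools and SEACR were used with the mouse build mm10. Program versions, settings, duplicate handling and any use of the control library were not given in the sources used here. Each deposited list, 1 per library, holds each peak's coverage signal as the authors gave it, read from the layout of SEACR output as a total over the peak and a highest point. Nearly all peak borders fall on bins of 50 bases. Positions count from 1. Peak signals were rounded to 1 decimal before peaks were ranked within a list. The choice of the stronger 50% and of the 10000 strongest peaks, and the summed end signals, used unrounded values.

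Genes, starts and start windows came from RefSeq tables of GRCm38.p6. Exons and introns were not separated, a gene end can be either border of a gene, and no genome sequence was used. Members and gene lists were chosen with earlier results of these data known. Genes were named by rule: in each role group up to 5 with shared end peaks, 3 with the most CHD7 peaks, 3 with the strongest shared pair, and all with an end peak of 1 list or none; from each other list up to 2. Values given for Fzd1, Lef1, Lgr6, Tle2 and Tle4 lie outside that rule and were chosen after they were seen. So were those for the Wnt1, Wnt3a, Wnt4, Wnt5a and Wnt10b loci and for the Lrp5 and Tcf7 loci. The motifs, the CpG minimum of 20 and the start-based counts were also chosen after values were seen. With 1 library per antibody no test was run. Shares of peaks carry exact binomial (Clopper-Pearson) 95% intervals. The code for peak overlaps was tested on simulated data. Computation used Python 3.11.15 with numpy 2.4.6 and pandas 2.3.3; scipy 1.17.1 gave the intervals and matplotlib 3.10.9 the figures.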

Additional observations from a re-analysis of the deposited data

How the results depend on the processing

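No paired analysis was possible because each antibody has 1 library. Counts of members with an end peak were compared under other settings. With the stronger 50% of peaks or ends of 500 bases or 2 kb they stayed within 1.5 times of those reported. The 16 of 42 members with CHD7 became 12, 16 and 17, against 19.2%, 28.5% and 34.1% of all genes. The 29 with SOX2 became 21, 24 and 35, against 47.7%, 52.4% and 68.6%. Starts are listed for 29 members, of which 13 had CHD7 within 1 kb of a start (44.8%) and 22 SOX2 (75.9%). Of all genes with a listed start, 31.0% and 54.9% did. With the 10000 strongest peaks of each list the counts of members at gene ends fell, as fewer peaks must give. They were 8 of 42 with CHD7 and 8 with SOX2, against 13.3% and 16.9% of all genes, and 4 with both. The share of all genes with both under this setting was not computed, so no background stands beside the 4. Locus counts followed the peak set and the locus size by construction. The 110 CHD7 peaks became 50 with the stronger 50%, 26 with the 10000 strongest, 67 with 10 kb and 185 with 100 kb on each side. The 564 SOX2 peaks became 288, 45, 303 and 884. The shared percent of CHD7 peaks in member loci was 64.5% as reported, 50% with the 10000 strongest peaks, 51.8% when SOX2 had to cover 50% of the CHD7 peak and 22.7% when the maximum-signal regions had to meet. It ran from 66.5% to 70.0% under the other settings. Single members kept or lacked an end peak as reported in 283 comparisons and changed in 53. Fewer peaks or shorter ends can only remove an end peak, and longer ends can only add one. Many of the 283 therefore could not have changed, and the number does not measure stability. Read depth is unknown, so a missing peak does not show a missing protein.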
